A study of Mus musculus with 6 samples.

Results

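Glycogen turnover in mouse liver was followed through 9 genes, namely 4 that encode glycogen-targeting subunits of protein phosphatase 1 (Ppp1r3b, Ppp1r3c, Ppp1r3d and Ppp1r3g) and 5 that encode enzymes of glycogen synthesis and breakdown (Gys2, Pygl, Gbe1, Ugp2 and Gyg). The members were all probes that carried 1 of these 9 names on the array, which gave 13 of 55681 probes, for 9 of 34832 gene names. Whole liver was taken from 6 C57BL6/J mice 2 hours after an oral dose, 3 mice having received CBZ at 250 mg/kg and 3 having received DMSO, the vehicle control. Each liver was read on 1 single-colour Agilent array. The arrays of all 3 DMSO mice and of CBZ mouse 1 lay in the first row of the slide, and those of CBZ mice 2 and 3 in the second. Age, sex and feeding state were not given in the sources used here, and nothing further was stated to set the groups apart.

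Glycogen is the store of glucose in the liver, built up after a meal and broken down between meals. Glycogenin primes the chain, UDP-glucose pyrophosphorylase makes the activated sugar, glycogen synthase lengthens the chain, branching enzyme adds branches, and glycogen phosphorylase releases glucose units. The Ppp1r3 subunits bring protein phosphatase 1 to the glycogen particle, where removal of phosphate switches glycogen synthase on and glycogen phosphorylase off.

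Ppp1r3g was the member with the largest difference between the groups, so the DNA just before its start is shown. A promoter entry was found for 7 of the 9 members in the RefSeq table of build GRCm38.p6. The 250 bases before the annotated start of Ppp1r3g lie on the plus strand at chr13:35967656-35967905, and capitals mark the matches to the motifs that were searched.
Ppp1r3g promoter: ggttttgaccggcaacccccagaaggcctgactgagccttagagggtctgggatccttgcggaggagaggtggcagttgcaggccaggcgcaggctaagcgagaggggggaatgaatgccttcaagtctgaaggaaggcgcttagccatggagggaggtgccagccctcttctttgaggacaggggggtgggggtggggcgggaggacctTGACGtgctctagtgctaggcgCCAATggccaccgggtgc

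This stretch had a GC content of 63.2%, against a median of 52.4% over 32851 stretches of the same length in the table, and held 9 CG dinucleotides against a median of 6. It was searched on both strands for 7 motifs, given here with the share of all stretches that hold them. They were CACGTG (6.02%), the longer TGACGTCA (1.55%), the TGACG that lies within it (17.8%), a forkhead-type TGTTTAC (3.17%), a nuclear receptor type AGGTCA (14.0%), the CCAAT box (33.8%) and a TATA-type TATAAA (12.4%). The Ppp1r3g window held 1 TGACG, which begins 40 bases before the start, and 1 CCAAT, which begins 18 bases before it, and no match to the others. None of these letters was particular to Ppp1r3g among the members. TGACG also lay before Pygl and, at 2 places, before Ppp1r3d, and CCAAT before Ppp1r3c and at 1 of the 2 starts of Ugp2. CACGTG lay before Ppp1r3c and Ppp1r3d.

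The 2 probes of Gbe1, the branching enzyme, lie 208613 bases apart, and 1 of them is shown because the array assigns it to a transcript record of its own. It reads chr16:70361227-70361286 on the plus strand in build mm9, and the capitals mark GTAAGT, the letters of a splice donor consensus, at bases 47 to 52.
Gbe1 probe A_55_P2129222: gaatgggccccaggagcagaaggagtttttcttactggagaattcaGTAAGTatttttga

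The same 6 letters occur on the probe strand in 0.959% of the 55681 probes. The probe was not placed in an exon or intron, and use of these letters as a splice site was not tested. Its values are given with the other Gbe1 probe below.

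After 2 hours, the levels of CBZ and DMSO livers did not overlap for 1 of the 8 genes that could be tested, Ppp1r3g. That count is near the share of all genes whose groups did not overlap, 12.9%. Tests were limited to probes that the scanner software marked as well above background in every mouse of either group, and 12 of the 13 member probes and 8 of the 9 genes met this. Ppp1r3d was the gene left out. None of the 8 genes passed an adjusted p of 0.05 (limma, Benjamini-Hochberg over 22352 probes), where 9 of 17057 genes passed in all (0.0528%), 8 of them higher with CBZ (0.0469%) and 1 lower (0.00586%). By probes, 0 of 12 passed against 0.0626% of all probes. At an unadjusted p under 0.05 there was 1 member, against 8.97% of all genes. All 3 CBZ livers lay above all 3 DMSO livers for 1 of 8 members, against 6.27% of all genes, and all 3 lay below for 0 of 8, against 6.65% (12.9% for either direction). That member was Ppp1r3g, whose probe met the limit for testing through the CBZ group alone, where it was high. By group means, 4 members were higher and 4 lower with CBZ, with a median log2 fold change of 0.02 against -0.0044 for all genes.

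**Figure D1:**
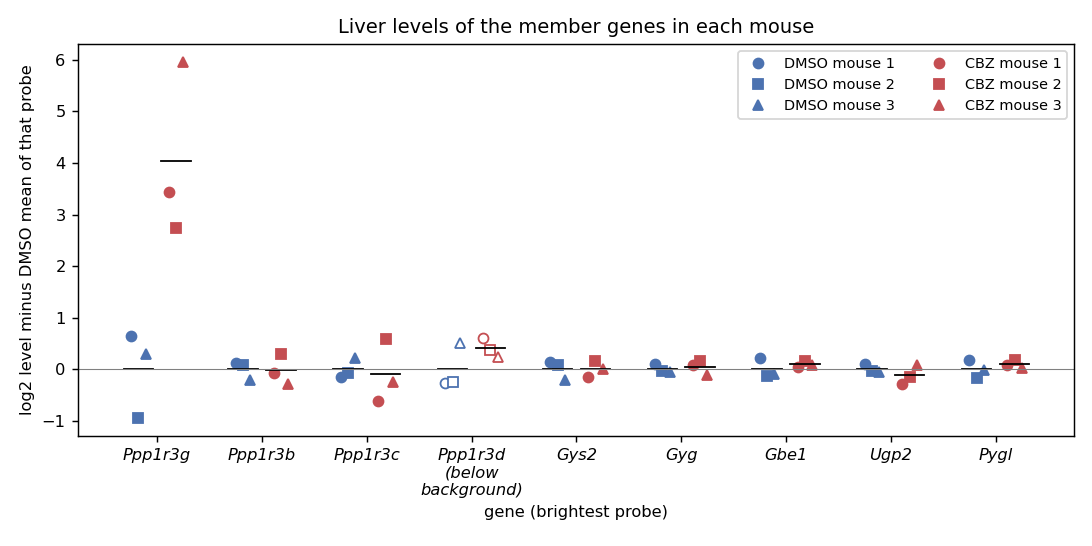
Log2 level of each member gene in each liver, relative to the DMSO mean of the same probe (y axis), by gene (x axis). Circles, squares and triangles are mice 1 to 3, blue for DMSO and red for CBZ, bars are group means, and open symbols mark Ppp1r3d, whose probe was at background level on every array. The 3 CBZ livers lie above the 3 DMSO livers for Ppp1r3g, with means 4.05 apart.

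Ppp1r3g encodes a glycogen-targeting subunit known from mouse liver for a part in glycogen deposition after meals. Its probe A_51_P155873 lies at chr13:36061999-36062058 on the plus strand (mm9). Its background-subtracted intensity was 91.4, 29.3 and 69.0 units in DMSO mice 1, 2 and 3, and 649.5, 341 and 3868 units in CBZ mice 1, 2 and 3. The groups did not overlap, DMSO mouse 2 was the lowest and was not well above background there, and CBZ mouse 3 was far above the other CBZ mice. Levels below are log2 intensities relative to the 75th percentile of the array, so that 0 is that percentile. On this scale Ppp1r3g was at -0.98, -2.57 and -1.33 in the DMSO livers and at 1.82, 1.11 and 4.34 in the CBZ livers.

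The mean log2 level of Ppp1r3g was -1.62 ± 0.84 (SD, n = 3) with DMSO and 2.42 ± 1.70 (SD, n = 3) with CBZ. The log2 fold change was 4.05 ± 0.75 (SE), or 16.5-fold, with a 95% interval from 5.03-fold to 54.2-fold. This value includes DMSO mouse 2, whose signal was not well above background, and is 11.9-fold without it. It was not called: the unadjusted p was 0.00052 and the adjusted p was 0.14 (limma). The DMSO mean rests on 2 of 3 arrays with a signal well above background, and the CBZ mean on 3 of 3.

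The spread between CBZ mice was wide for Ppp1r3g. CBZ mouse 3 was 9.38-fold above CBZ mouse 2 and 5.73-fold above CBZ mouse 1, while CBZ mouse 1 was 1.64-fold above CBZ mouse 2. The lowest CBZ liver was 4.24-fold above the highest DMSO liver, both well above background, a gap smaller than the range within CBZ. The pooled SD of 1.34 on the log2 scale compares with a median of 0.18 over all genes. Without CBZ mouse 3 the fold change of Ppp1r3g was 8.50 (adjusted p = 0.16, limma), without CBZ mouse 2 it was 26.0 (adjusted p = 0.24, limma) and without DMSO mouse 2 it was 11.9 (adjusted p = 0.34, limma).

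The call on Ppp1r3g depended on how background and scale were set. With normexp background correction, which adds an offset and so compresses low intensities, the difference was 6.83-fold with an adjusted p of 0.018 (limma), in a fit that called 0.582% of all probes. With each array scaled to its median, as in the authors' deposited table, the log2 difference was 3.95 and the adjusted p was 4.9e-39 (limma). Those fits gave every probe the same variance in place of its own, with 89408 degrees of freedom against 8.62 as reported. All 3 DMSO livers and CBZ mouse 1 lay in the first row of the slide and CBZ mice 2 and 3 in the second. With the row in the fit, which compares CBZ mouse 1 with the DMSO livers, the difference was 10.9-fold (adjusted p = 0.66, limma).

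**Figure D2:**
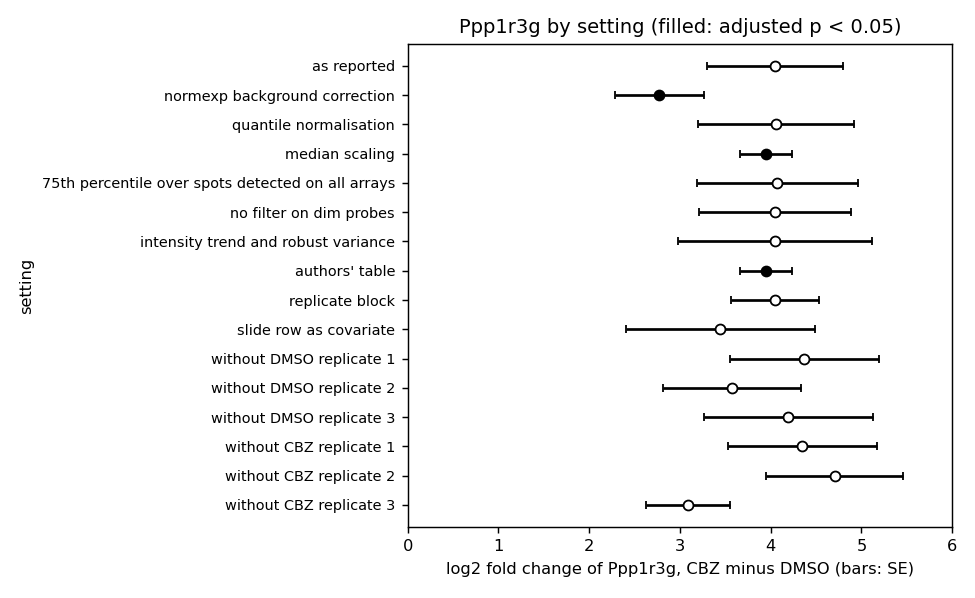
Log2 fold change of Ppp1r3g, CBZ minus DMSO, with its SE (x axis) under the reported setting and each alternative that gave a value (y axis). Filled points have an adjusted p under 0.05. The difference was positive in 16 of 16 settings, from 2.77 to 4.70. All settings share the same livers, whose groups did not overlap, so this count is no separate support. The 3 filled points are normexp, median scaling and the authors' table, which holds that same scaling.

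Since whole liver was measured, a different share of cells of a type and a different amount of RNA per cell cannot be told apart. Of 10 marker lists for the cell types that a liver piece could hold, 9 had summed levels that overlapped between the groups. The 8 hepatocyte markers were well above background on every array, with summed levels from 5703 to 6007 times the array's 75th percentile with DMSO and from 5582 to 6601 times with CBZ. The adipocyte list was the exception, at 0.836 to 1.03 times with DMSO and 1.11 to 1.52 times with CBZ. Of its 4 markers 1 was well above background on all arrays, and its defining markers Adipoq and Lep were not above background on any. The part of these markers in the Ppp1r3g result was not tested.

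A named gene next to Ppp1r3g had overlapping groups. The probe of Lyrm4, which encodes a protein of iron-sulfur cluster assembly, lies 9503 bases from the Ppp1r3g probe. Lyrm4 was at log2 levels of 2.05, 1.81 and 1.83 in the DMSO livers and 1.99, 2.15 and 1.84 in the CBZ livers. Its log2 fold change was 0.10 ± 0.14 (SE, adjusted p = 0.95, limma).

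Ppp1r3b encodes the subunit often called GL, the main glycogen-targeting subunit of rodent liver. Its probe A_55_P1967133 lies at chr8:36451115-36451174 on the plus strand (mm9). The log2 level of Ppp1r3b was 6.62, 6.58 and 6.29 in the DMSO livers and 6.42, 6.80 and 6.21 in the CBZ livers. The groups overlapped, with the highest and the lowest liver both in the CBZ group, where mouse 2 was 1.51-fold above mouse 3. The log2 fold change was -0.02 ± 0.18 (SE, adjusted p = 0.99, limma), and its 95% interval ran from -25.8% to 30.9%.

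Ppp1r3c encodes the subunit known as protein targeting to glycogen. Its probe A_52_P30451 lies at chr19:36806457-36806516 on the minus strand (mm9). The log2 level of Ppp1r3c was 3.43, 3.51 and 3.78 in the DMSO livers and 2.96, 4.16 and 3.34 in the CBZ livers. Here too the extremes were both CBZ livers, with mouse 2 at 2.30-fold the level of mouse 1. The log2 fold change of -0.09 ± 0.28 (SE, adjusted p = 0.98, limma) had an interval from -39.3% to 45.7%, the widest of the members other than Ppp1r3g. The pooled SD of Ppp1r3c was 0.45. With the slide row in the fit, which compares CBZ mouse 1 with the DMSO livers, its log2 fold change was -0.61.

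Ppp1r3d encodes a further glycogen-targeting subunit, found in many tissues. Its probe A_51_P169516 lies at chr2:178145994-178146053 on the minus strand (mm9) and was not well above background on any of the 6 arrays. The intensity of Ppp1r3d was 24.2, 23.5 and 39.8 units in the DMSO livers and 45.3, 33.2 and 36.2 units in the CBZ livers. The groups overlapped, and with both below the detection limit no fold is given.

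The subunits were also compared within each array, by the log2 difference between 2 probes in the same liver, in 4 pairs. The test could not pass 0.05, since the smallest exact two-sided permutation p that 3 against 3 mice allow is 0.1. The difference between Ppp1r3g and Ppp1r3b was higher by 4.07 with CBZ, and that between Ppp1r3g and Ppp1r3c by 4.13 (each exact permutation p = 0.1, or 0.2 adjusted over the 4 pairs). As Ppp1r3b and Ppp1r3c themselves differed by -0.02 and -0.09, both values restate the Ppp1r3g difference. The difference between Ppp1r3b and Ppp1r3c moved by 0.07 (exact permutation p = 0.9), and the groups overlapped.

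The 5 enzyme genes differed little between CBZ and DMSO livers. Over their 9 probes the log2 fold change ran from -0.12 to 0.16, the adjusted p from 0.86 to 0.999 (limma), and the 95% intervals from -26.2% to 37.7%. The pooled SD of these probes was 0.11 to 0.18 on the log2 scale, below the median of 0.18 over all genes.

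Gyg encodes glycogenin, the protein that primes a new glycogen chain. Its brighter probe A_55_P1992910 lies at chr3:20022033-20022092 on the minus strand (mm9) and read log2 levels of 2.32, 2.19 and 2.17 in the DMSO livers and 2.30, 2.39 and 2.12 in the CBZ livers. The groups overlapped, with a log2 fold change of 0.05 ± 0.13 (SE, adjusted p = 0.98, limma). The other Gyg probe, A_51_P240019 at chr3:20022018-20022077, shares 45 of its 60 bases with the first, so the pair are not separate measurements. It read 2.01, 1.90 and 1.92 with DMSO and 2.10, 2.07 and 1.81 with CBZ.

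Ugp2 encodes UDP-glucose pyrophosphorylase, which makes the UDP-glucose that glycogen synthase uses. Its brighter probe A_55_P2021049 lies at chr11:21221975-21222034 on the minus strand (mm9), with log2 levels of 5.39, 5.25 and 5.23 in the DMSO livers and 5.0, 5.15 and 5.38 in the CBZ livers. CBZ mice 1 and 2 were below all DMSO livers and CBZ mouse 3 was not. The log2 fold change was -0.12 ± 0.14 (SE, adjusted p = 0.93, limma), with an interval from -26.2% to 15.5%. The second Ugp2 probe, A_51_P475580 at chr11:21221281-21221340, starts 694 bases away and read 3.72, 3.60 and 3.66 with DMSO and 3.50, 3.60 and 3.78 with CBZ, a log2 fold change of -0.03 ± 0.13 (SE). Both Ugp2 probes put CBZ mouse 1 lowest.

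Gys2 encodes the liver form of glycogen synthase, the enzyme that lengthens the chain. Its brighter probe A_55_P1992555 lies at chr6:142371157-142371216 on the minus strand (mm9), with log2 levels of 6.34, 6.28 and 6.0 in the DMSO livers and 6.05, 6.36 and 6.20 in the CBZ livers. The groups overlapped, and the log2 fold change was -0.0016 ± 0.15 (SE, adjusted p = 0.999, limma), with an interval from -20.9% to 26.2%. The second Gys2 probe, A_55_P2175545 at chr6:142371915-142371974, read 2.90, 2.82 and 2.48 with DMSO and 2.66, 2.82 and 2.88 with CBZ, a log2 fold change of 0.05 ± 0.15 (SE). DMSO mouse 3 was the lowest liver for both Gys2 probes.

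Gbe1 encodes the branching enzyme. Its brighter probe A_51_P273684 lies at chr16:70569840-70569899 on the plus strand (mm9), with log2 levels of 5.67, 5.31 and 5.35 in the DMSO livers and 5.48, 5.61 and 5.53 in the CBZ livers. DMSO mouse 1 was the highest liver, and the log2 fold change was 0.10 ± 0.14 (SE, adjusted p = 0.95, limma). The probe with the printed sequence read 0.08, 0.12 and 0.28 with DMSO and 0.19, 0.40 and 0.39 with CBZ, a log2 fold change of 0.16 ± 0.13 (SE, adjusted p = 0.86, limma). The order of the mice differed between the 2 Gbe1 probes, and neither separated the groups.

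Pygl encodes the liver form of glycogen phosphorylase, which releases glucose units from glycogen. Its probe A_51_P452779 lies at chr12:71291855-71291914 on the minus strand (mm9), with log2 levels of 7.93, 7.59 and 7.75 in the DMSO livers and 7.84, 7.93 and 7.79 in the CBZ livers. The groups overlapped, and the log2 fold change was 0.09 ± 0.14 (SE, adjusted p = 0.95, limma), with an interval from -14.0% to 32.4%. The within-array difference between Gys2 and Pygl, the synthesis and the breakdown enzyme, moved by -0.10 (exact permutation p = 0.6, smallest possible 0.1).

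**Figure D3:**
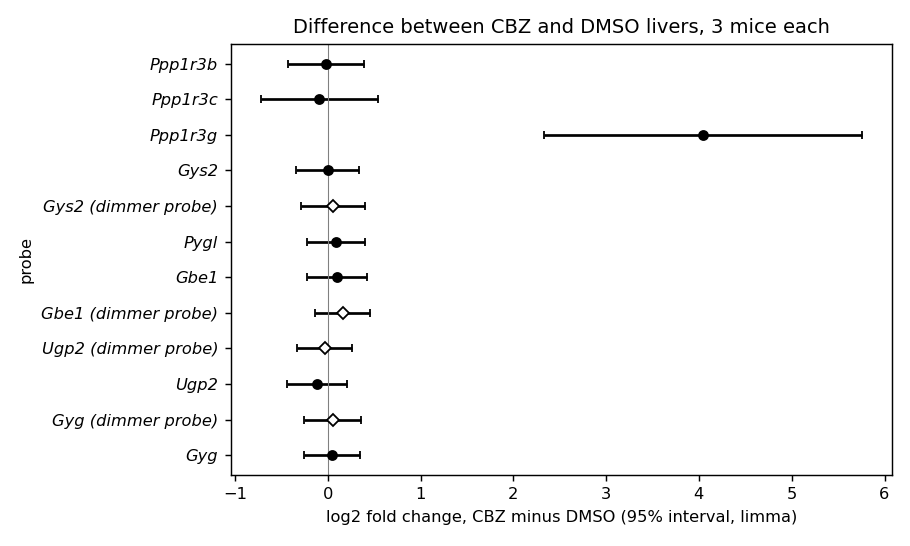
Log2 fold change, CBZ minus DMSO, with its 95% limma interval (x axis) for the 12 member probes tested (y axis). Filled circles are the brightest probe of a gene and open diamonds a dimmer second probe. The Ppp1r3g interval runs from 2.33 to 5.76, and the other 11 intervals all include 0.

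The other genes of glycogen turnover were described through 5 lists of 53 genes, of which 44 had a probe that could be tested. None of the 44 passed the adjusted p of 0.05 (0 of 44, limma, against 0.0528% of all genes), and 5 had an unadjusted p under 0.05 against 8.97%. All 3 CBZ livers lay above all 3 DMSO livers for 4 of the 44 (Nhlrc1, Stbd1, Pygm and G6pc), against 6.27% of all genes. They lay below for 3 of the 44 (Dyrk1a, Prkaa1 and Irs1), against 6.65%. For either direction the share of all genes was 12.9%. By group means 20 were higher and 24 lower with CBZ, with log2 fold changes from -0.49 to 0.93 and a median of -0.02. Ppp1r3g at 4.05 lay outside that range, a value that includes DMSO mouse 2, whose signal was not well above background. Its probe was tested through the CBZ group alone, and the members and lists were chosen with earlier results of these data known. The contrast with the lists is therefore no separate support for a difference in Ppp1r3g.

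Of the other phosphatase subunits, Ppp1r3a, Ppp1r3e and Ppp1r3f were not tested because their probes were not well above background on any array. The catalytic subunits that all Ppp1r3 proteins bind were tested. Their log2 fold changes were 0.15 ± 0.13 for Ppp1cc, -0.08 ± 0.12 for Ppp1cb and -0.09 ± 0.14 for Ppp1ca (SE). None of the 3 passed the test.

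Among other glycogen enzymes and binding proteins, 9 of 11 genes were tested, 6 were higher by mean and the median log2 fold change was 0.14. That median was -0.08 without DMSO mouse 3 and 0.05 with median scaling. Nhlrc1, which encodes the ubiquitin ligase malin, was at log2 levels of -0.79, -2.36 and -1.21 with DMSO and -0.70, -0.62 and -0.27 with CBZ. The groups did not overlap, as was so for 12.9% of all genes. For Nhlrc1, 2 of 3 DMSO arrays had a signal well above background, so it met the limit for testing through the CBZ group alone. Its log2 fold change was 0.93 ± 0.35 (SE, adjusted p = 0.45, limma). DMSO mouse 2 was the lowest liver and its signal was not well above background. Without it the log2 fold change of Nhlrc1 was 0.47 (adjusted p = 0.86, limma), and with normexp it was 0.43 (adjusted p = 0.29, limma). Stbd1, which encodes a protein that binds glycogen, was at 5.08, 5.23 and 4.95 with DMSO and 5.43, 5.77 and 5.28 with CBZ, a log2 fold change of 0.41 ± 0.16 (SE, adjusted p = 0.47, limma). Pygm, the muscle phosphorylase gene, had a log2 fold change of 0.14 ± 0.12 (SE, adjusted p = 0.86, limma).

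Among phosphorylase kinase and the kinases of glycogen synthase, 15 of 16 genes were tested, 3 were higher by mean and 12 lower, with a median log2 fold change of -0.11. That median was -0.029 without CBZ mouse 1 and -0.21 with median scaling. Dyrk1a, listed here as a kinase of glycogen synthase, was at log2 levels of 0.92, 1.02 and 1.05 with DMSO and 0.58, 0.58 and 0.36 with CBZ. The groups did not overlap, with a log2 fold change of -0.49 ± 0.13 (SE, adjusted p = 0.27, limma) and -0.37 at its other probe. Prkaa1, a catalytic subunit of AMP-activated kinase, had a log2 fold change of -0.26 ± 0.13 (SE, adjusted p = 0.63, limma). Prkacb, a catalytic subunit of protein kinase A, had one of -0.21 ± 0.14 (SE, adjusted p = 0.76, limma).

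Among genes of glucose entry, trapping and release, 7 of 8 were tested, 6 were higher by mean and the median log2 fold change was 0.14, or 0.04 with median scaling and 0.22 and 0.23 without DMSO mouse 1 and CBZ mouse 1. G6pc encodes the catalytic subunit of glucose-6-phosphatase, which frees the glucose that leaves the liver. It was at log2 levels of 7.70, 7.32 and 7.73 with DMSO and 8.29, 8.32 and 8.46 with CBZ, so all CBZ livers lay above all DMSO livers. The difference was 1.71-fold (log2 fold change 0.77 ± 0.15, SE, adjusted p = 0.15, limma). It passed with normexp (adjusted p = 0.013, limma) and with an intensity trend and robust variance (adjusted p = 0.00185, limma). G6pc passed in no other setting run, with an adjusted p of 0.74 with median scaling and 0.76 with no filter on dim probes (limma). The hexokinase genes Hk1 and Hk3 had log2 fold changes of 0.24 ± 0.15 and 0.38 ± 0.31 (SE), and their groups overlapped.

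Of hormone receptor and insulin signalling genes, 10 of 12 were tested, 4 were higher by mean and 6 lower, and the median log2 fold change was -0.05. That median was -0.21 with the slide row in the fit, -0.15 with median scaling, and -0.00079 and -0.00019 without DMSO mouse 1 and CBZ mouse 1. The insulin receptor substrate gene Irs2 had a log2 fold change of 0.65 ± 0.27 (SE, adjusted p = 0.50, limma) with overlapping groups. Irs1, the other substrate, was at log2 levels of 1.87, 1.83 and 2.29 with DMSO and 1.51, 1.74 and 1.69 with CBZ, with no overlap and a log2 fold change of -0.35 ± 0.16 (SE, adjusted p = 0.56, limma). Pdpk1, a kinase downstream of insulin, had a log2 fold change of -0.24 ± 0.14 (SE, adjusted p = 0.68, limma).

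**Figure D4:**
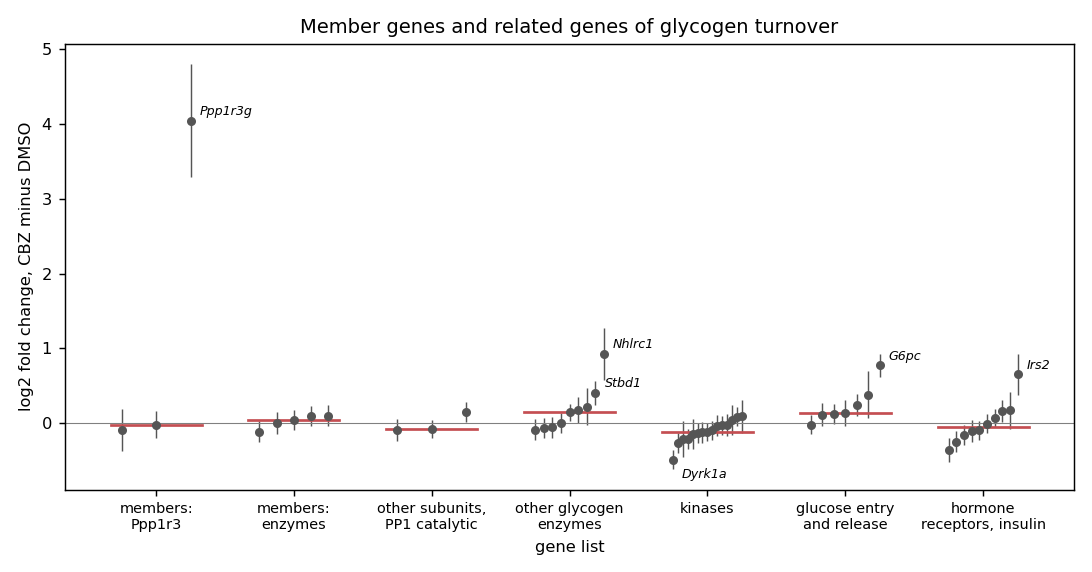
Log2 fold change, CBZ minus DMSO, with its SE (y axis) for every tested gene of the 2 member lists and the 5 related lists (x axis). Red bars are list medians. Ppp1r3g is at 4.05, and the 44 related genes lie between -0.49 and 0.93.

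The genes whose levels over the 6 livers were most like those of each Ppp1r3 gene were found by the root mean square difference of log2 levels, each gene centred on its own mean, among 10918 named genes. Since the group difference is part of the pattern, likeness to Ppp1r3g includes a difference between CBZ and DMSO. The nearest to Ppp1r3g was Gadd45b, a stress-response gene, at a distance of 1.05, where the size of the Ppp1r3g pattern itself was 2.30. Gadd45b was at 1.39, 1.31 and 1.49 with DMSO and 3.995, 4.23 and 4.81 with CBZ, and it rose by 2.95 ± 0.20 (SE) on the log2 scale (adjusted p = 0.0056, limma). The call was lost without DMSO mouse 3 (adjusted p = 0.11, limma), without CBZ mouse 2 (adjusted p = 0.086, limma) and with no filter on dim probes (adjusted p = 0.31, limma). The next were Gdf15, a secreted stress hormone, at 1.10, and Setdb2 and Pdk4, both at 1.37. Their log2 fold changes were 2.61 ± 0.38 for Gdf15 (adjusted p = 0.065, limma), 1.86 ± 0.29 for Setdb2 (adjusted p = 0.073, limma) and 1.44 ± 0.51 for Pdk4 (adjusted p = 0.41, limma). Gdf15 and Setdb2 passed the threshold without CBZ mouse 1 (adjusted p = 0.015 and 0.024, limma), with normexp (0.00125 and 0.00215), with signal required on all 6 arrays (0.030 and 0.032) and with median scaling or the authors' table, and in no other setting run. Pdk4 passed with median scaling and the authors' table (adjusted p = 0.00103, limma). With the slide row in the fit the log2 fold change was 1.73 for Gdf15, 1.27 for Setdb2 and 0.70 for Pdk4, and without CBZ mouse 3 it was 0.77 for Pdk4. The fifth, Gadd45a at 1.44, was not well above background on any DMSO array, so no fitted fold is given. CBZ mouse 3 was the highest liver for Ppp1r3g and for all 5 of these genes, which the choice by likeness favours.

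**Figure D5:**
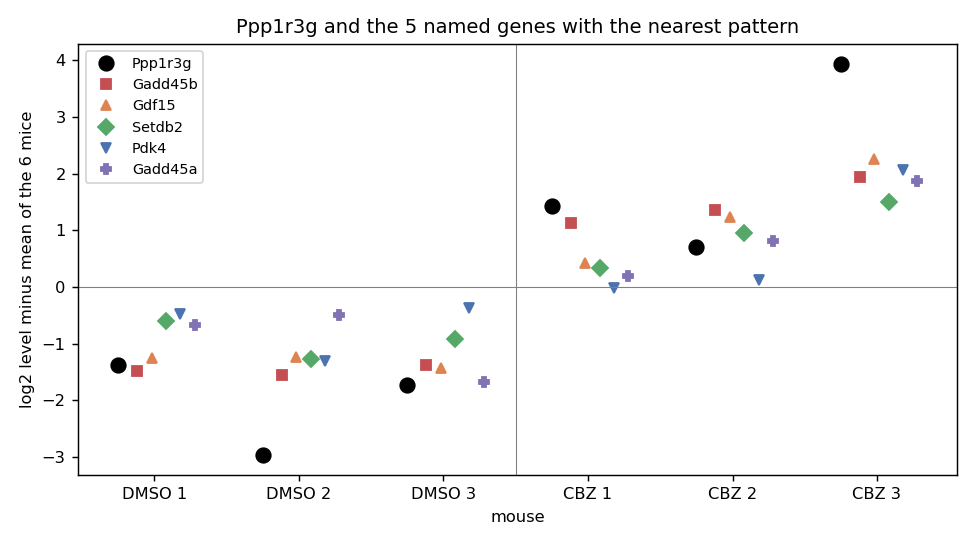
Log2 level minus the mean of the 6 livers (y axis) in each mouse (x axis) for Ppp1r3g and the 5 named genes nearest to it. All 6 genes are highest in CBZ mouse 3, which the choice by likeness favours, and the distances from Ppp1r3g run from 1.05 for Gadd45b to 1.44 for Gadd45a, whose DMSO values were not well above background.

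The Ppp1r3b pattern was small, at 0.20, and its nearest genes were Casd1 at a distance of 0.025, Ncoa4 at 0.036, Slc50a1 at 0.039, Ccdc104 at 0.048 and Flt1 at 0.050. The Ppp1r3c pattern was 0.37 in size, with S100pbp at 0.13, Tgoln2 at 0.14, Herc3 at 0.14, Sept10 at 0.15 and Cd34 at 0.15. Neither set of 5 shared a gene with that of Ppp1r3g, an outcome fixed by the unlike sizes of the patterns (2.30 for Ppp1r3g).

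Of the spots on each array 42.6% to 45.8% were well above background, no spot was saturated, and the 75th percentile of intensity was 158 to 191 units. The median intensity varied more, from 27.5 units for CBZ mouse 2 to 45.5 units for CBZ mouse 1. The 75th percentile exceeded the Ppp1r3g probe in all DMSO livers and lay below it in all CBZ livers. The 6 arrays, 1 per mouse on 1 slide, limit the precision of every value above.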

How the data were processed

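Liver RNA (100 ng per mouse, Cy3) was hybridised to Agilent arrays of 60-base probes. Per the file headers, the deposited intensity is the background-subtracted processed signal of Agilent Feature Extraction 10.7.3.1, with probe positions in build mm9. The authors' deposited table holds a ratio, each processed intensity over its array's median. Sequences came from the array files and RefSeq.

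From the deposited intensities, control spots and outlier spots (114 to 126 per array) were left out and spots of a probe averaged. Values were log2 intensity minus that of the array's 75th percentile. Probes marked well above background in all 3 mice of either group were kept (22352 of 55681). limma 3.58.1 in R 4.3.3 compared 3 CBZ with 3 DMSO mice without covariates, two-sided, with Benjamini-Hochberg adjustment over all kept probes and a threshold of 0.05. A gene was read by its brightest kept probe. Fits were tested on simulated data. Alternatives changed the background correction, scaling, filter, variance model, covariates, probe rule and mice.

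All members were named. So were up to 3 genes with the smallest p per related list, unless more passed, and the 5 genes most like each tested Ppp1r3 gene. The members and lists were chosen with earlier results of these data known. The labels stated no pairing of mice by replicate number, and none was used in the reported fit. The number of arrays limits precision.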

Additional observations from a re-analysis of the deposited data

How the results depend on the processing

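Ppp1r3g was higher with CBZ in 16 of 16 settings. When 1 mouse was left out, its log2 fold change was 3.09 to 4.70 and its adjusted p 0.13 to 0.34 (limma). Since the groups did not overlap, leaving out 1 mouse could not change this sign. The settings share the same livers, so their number is no separate support. Ppp1r3g passed with normexp (2.77), median scaling and the authors' table (3.95 in both). That made the count of members called 1 in each, and the count was 0 under the other settings. Requiring signal on all 6 arrays removed its probe. The count of probes called was 14 as reported, 130 with normexp, 7 with quantile normalisation, 131 with median scaling and with the authors' table, 6 with the percentile over detected spots, 0 without a filter, 43 with the 6-array filter, 174 with a trend and robust variance, 7 with the slide row, 58 at an adjusted p under 0.10, and 0 to 30 without 1 mouse (0 without DMSO mouse 3 or CBZ mouse 2). The causes were not tested.

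Deviations from the group means had correlations of -0.24, 0.016 and 0.18 between same-numbered mice. Between mice of different numbers they ran from -0.35 to 0.38. With 3 mice per group these values cannot decide whether mice were paired. With the replicate number as a block, 10 probes and 0 members were called, and the adjusted p of Ppp1r3g was 0.097.

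For the other 11 member probes, 29 of 180 alternative values changed sign, by at most 0.17 in size, and none passed (smallest adjusted p = 0.51). The detected-spot percentile gave 0.0048 for Ppp1r3b and 0.025 for Gys2, quantile normalisation 0.010 and the mean of probes 0.026 for Gys2. Median scaling and the authors' table, which move the median of all probes from -0.0062 to -0.11, gave -0.046 for the dimmer Gys2 probe, -0.0061 for Pygl, -0.00082 for Gbe1, and -0.053 and -0.047 for the Gyg probes. The slide row gave -0.071 for the dimmer Gys2 probe. With signs unchanged it gave -0.61 for Ppp1r3c, against -0.09 as reported, and -0.29 for the brighter Ugp2 probe, against -0.12. That fit compares CBZ mouse 1 with the DMSO livers. Without 1 mouse the ranges were -0.18 to 0.11 for Ppp1r3b, -0.43 to 0.17 for Ppp1r3c, -0.10 to 0.073 for Gys2, -0.073 to 0.14 for its dimmer probe, -0.11 to 0.030 for the dimmer Ugp2 probe, and -0.013 to 0.12 and -0.0018 to 0.14 for the Gyg probes.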
